A study of Menidia menidia with 24 samples.

Results

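Larvae of the Atlantic silverside (Menidia menidia) that met combined hypoxia and acidification (HypOA) in both generations were compared with larvae that met it in neither. The HH larvae had HypOA parents and were themselves reared under HypOA, and the CC larvae had control parents and control rearing. The comparison used 12 of the 24 sequenced larvae, 6 in each group, taken by their labels. The other 12 larvae, CH (control parents, HypOA rearing) and HC (HypOA parents, control rearing), entered the fit, and their values are given beside some results. Each library was 1 whole larva of 19 dpf (days post-fertilization). Per the labels, all groups were reared at 20°C, HypOA rearing had 35% dissolved oxygen (DO) with 2500 µatm PCO2, and control rearing had 100% DO with 600 µatm PCO2. HypOA parents had met low oxygen and high PCO2 at night before they spawned, and gametes were pooled within each parental group. HH and CC therefore differed in parental exposure, in offspring exposure and in parental pool at once, and these cannot be told apart in this contrast. The paper lists the HypOA females used for fertilization as shorter and lighter on average than the control females. It lists the HypOA males as slightly larger, and the part of parent size was not tested. The paper further reports that larvae reared under HypOA hatched later and were shorter and slightly less developed at sampling. It proposes that part of the transcript changes may reflect this. The labels give no size or stage for a larva, so the part of stage in the results below was not tested. Per the study's methods, the 6 larvae of a group were taken as pairs from 3 rearing containers. The labels give no container for a larva, so each larva entered the tests as 1 sample, and the p-values and FDRs do not account for likeness between larvae of 1 container.

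Low oxygen limits mitochondrial respiration, and fish can meet it by carrying more oxygen in the blood and by lowering the cost of growth, movement and digestion. High PCO2 acidifies the blood, and fish hold their pH by moving acid and bicarbonate across membranes, which also shifts the ion gradients that neurons use for signalling. A larva of this age is still laying down its nervous system, skeleton, muscle and gut, so a change of the whole-larva transcriptome may come from fewer cells of a type or from less RNA per cell, which cannot be told apart in these libraries.

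Reads counted on transcripts ranged from 12136995 to 15294834 in HH larvae (median 13758847) and from 12165061 to 16120500 in CC larvae (median 12848760.5). The log2 depth of HH and CC larvae differed by 0.0335 (exact permutation test, two-sided, p=0.688). The share of reads on no annotated feature averaged 21.2% in HH and 19.9% in CC larvae (exact permutation test, two-sided, p=0.00649, Benjamini-Hochberg adjusted over 3 library measures 0.0195), and its part in the results was not tested. Transcripts of muscle, nerve, gut and blood were all detected, as a whole larva should have them. Values are CPM, the read counts of a transcript scaled to a common library size with TMM factors. Levels are compared within a transcript only, since CPM do not correct for transcript length.

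Of 17262 transcripts tested in edgeR, 1520 (8.81%) differed between HH and CC larvae at a false discovery rate (FDR) below 0.05, with 900 (5.21%) higher and 620 (3.59%) lower in HH. These differentially expressed transcripts are called DETs below. The rises were small and even: their median log2 fold change was 0.60, 69 of 900 exceeded 1 and 7 exceeded 2. The falls were as small in the middle (median −0.66) but had a long tail, with 142 of 620 beyond a log2 fold change of 1 in size and 37 beyond 2. The 6 HH larvae lay wholly above the 6 CC larvae in 425 of the 900 raised DETs and wholly below them in 121 of the 620 lowered DETs. Over all transcripts, the groups did not overlap in 3.76%, with HH above CC in 2.87% and below it in 0.892%. A median raised DET had a standard deviation of log2 CPM of 0.211 among HH larvae and 0.244 among CC larvae, whereas a median lowered DET had 0.249 among HH and 0.353 among CC larvae. Over all tested transcripts the median standard deviation was 0.258 among HH and 0.325 among CC larvae. The number of DETs depended on single larvae. Leaving out HH 6 gave 821 DETs, CC 4 gave 895, CC 2 gave 911, HH 1 gave 955 and CC 1 gave 1250. More DETs were called without CC 3 (1697), CC 5 (1676) or HH 5 (1609).

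**Figure D1:**
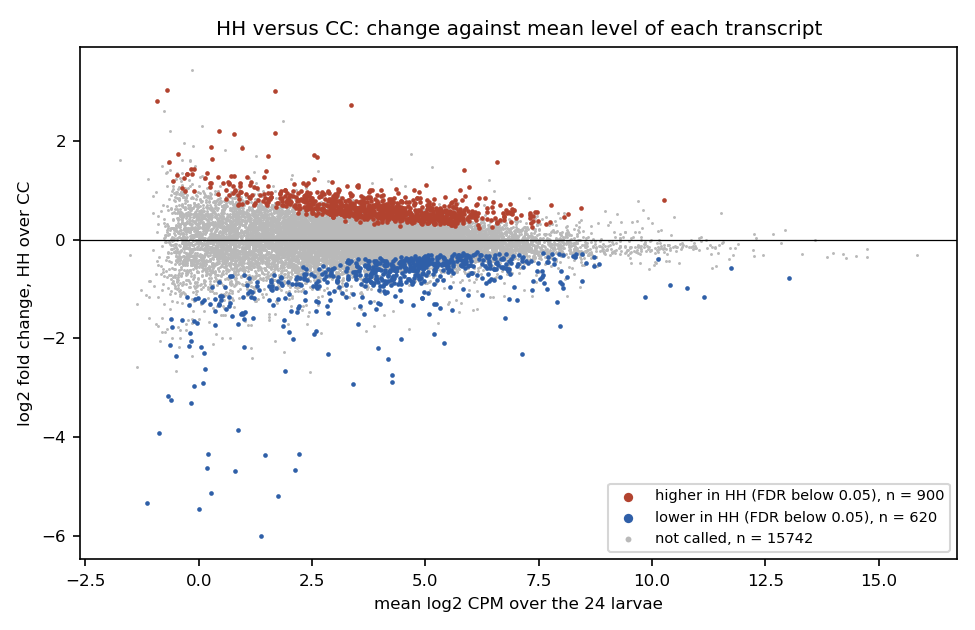
Log2 fold change of HH over CC larvae (vertical axis) against the mean log2 CPM over the 24 larvae (horizontal axis) for 17262 transcripts. The 900 DETs higher in HH lie in a narrow band with a median of 0.60, and the 620 lower in HH reach down to −5.99.

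Gene symbols were known for 1208 of the tested transcripts, all of which had been called in CH versus CC, a comparison that shares the CC larvae. Of these, 593 (49.1%) were DETs in HH versus CC, 31.7% higher and 17.4% lower in HH. HH larvae lay wholly above CC larvae in 217 of the 1208 and wholly below them in 44. The count of a gene list below is to be read against these shares rather than 8.81% alone, and no list is independent evidence of its direction. Below 49.1% called in either direction were collagen processing (46.7%), inhibitory transmission (46.2%), ion pumps and bicarbonate (44.4%) and muscle (33.3%). So were glycolysis and glucose (33.3%), growth signalling (30%) and immune transcripts (13.6%). Muscle was called only lower, and its share lay above the 17.4% lower. Inhibitory transmission and ion pumps were called only higher, and their shares lay above the 31.7% higher. Glycolysis and growth signalling, also called only higher, lay near 31.7%. The remaining 927 DETs (61.0%) had no symbol and are not described by function, apart from the largest of each direction. Across 20 lists of 382 transcripts, globins had the highest median and digestive enzymes the lowest, with the 7 neural lists on the positive side and collagens, matrix and muscle on the negative side. Over all tested transcripts the median log2 fold change was −0.02. Over the 1208 transcripts with a symbol, from which the lists were drawn, it was 0.19.

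**Figure D2:**
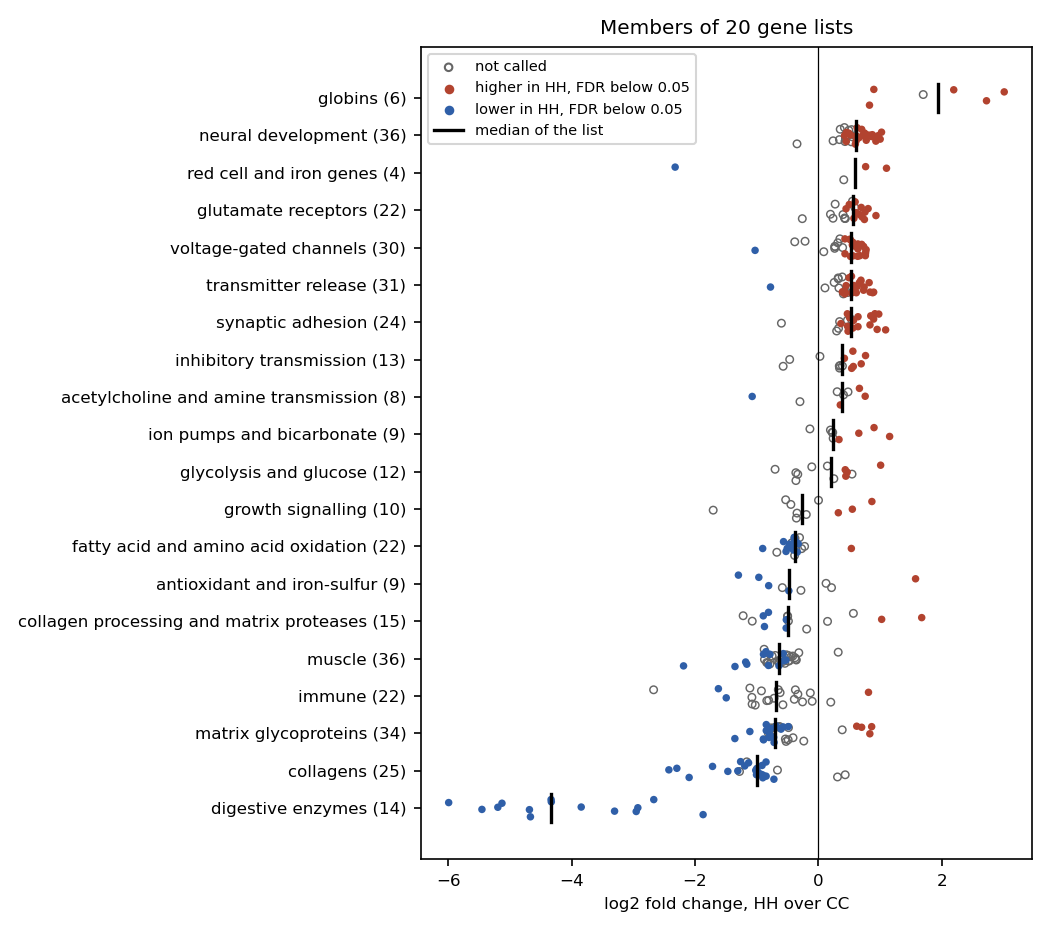
Log2 fold change of HH over CC larvae (horizontal axis) for each member of 20 gene lists, with the number of members in brackets. Filled points passed an edgeR FDR of 0.05 (red higher in HH, blue lower in HH), open points did not, and the bar is the median of the list, from −4.33 in digestive enzymes to 1.95 in globins.

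The transcript with the smallest FDR belonged to a list of genes for iron-sulfur clusters, the cofactors of respiratory complexes, and for the removal of oxygen radicals. The list also holds subunits of cytochrome c oxidase. It was put together with earlier results of these data known and is not a single pathway. Of 9 transcripts of this list, 4 fell and 1 rose, and the same counts were found under the 8 alternative settings run on the lists and without each larva. ISCU (mme11399), the scaffold on which iron-sulfur clusters are assembled, had 21, 24.2, 18, 25.7, 22.3 and 28.6 CPM in HH larvae, against 64.4, 57.4, 66.5, 56.3, 52.2 and 45.9 CPM in CC larvae. Every HH larva lay well below every CC larva, at a log2 fold change of −1.30±0.13 (SE), the smallest FDR of all transcripts tested (edgeR, FDR=5.53e-06). NFS1 (mme02886), the desulfurase that supplies the sulfur, had 18 to 25.4 CPM in HH larvae (median 19.6) and 23.8 to 48.7 CPM in CC larvae (median 34.7). The groups touched at CC 5, and the fall was −0.80±0.18 (edgeR, FDR=0.00792). ISCA1 (mme01682), which acts later in cluster assembly, had medians of 29.7 CPM in HH and 36.3 CPM in CC larvae and did not pass the test (−0.28±0.14, edgeR FDR=0.211).

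A pair of antioxidant enzymes was lower in HH larvae as well. PRDX5 (mme10897), a peroxiredoxin that reduces peroxides in mitochondria and peroxisomes, had 91.9, 82.7, 79.5, 90.9, 82.3 and 71.2 CPM in HH larvae, against 128, 164, 162, 170, 196 and 152 CPM in CC larvae. The groups did not overlap, and the log2 fold change was −0.96±0.11 (edgeR, FDR=3.61e-05). SODC (mme10565), the copper-zinc superoxide dismutase, had 68.7 to 88.2 CPM in HH (median 78.6) and 97.6 to 122 CPM in CC larvae (median 109). This was a smaller fall of −0.48±0.09 (edgeR, FDR=0.00185), again without overlap. GPX3 (mme04240), a glutathione peroxidase, with medians of 9.46 CPM in HH and 8.53 CPM in CC larvae, did not pass the test (0.13±0.16, edgeR FDR=0.668). Neither did NNTM (mme11334), the mitochondrial transhydrogenase that supplies NADPH, at −0.58±0.24 (edgeR, FDR=0.123).

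The single rise of the list was CX6B1 (mme16698), a small subunit of cytochrome c oxidase, the enzyme that passes electrons to oxygen. It had 207, 175, 94.1, 204, 117 and 133 CPM in HH larvae and 40.7, 36.5, 66.3, 44.7, 55.2 and 68.9 CPM in CC larvae. The lowest HH larva was above the highest CC larva, and the rise was 1.58±0.22 on the log2 scale, a factor of 2.98 (edgeR, FDR=2.79e-04). COX5A (mme02048), another subunit of the same enzyme, had medians of 176 CPM in HH and 151 CPM in CC larvae and did not pass the test (0.21±0.14, edgeR FDR=0.355).

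In HH versus HC, larvae of the same parents that differed in rearing, 4 of 17262 transcripts (0.0232%) passed the test, and these were ISCU, PRDX5, SODC and CX6B1. The log2 fold change of HH over HC was −1.29±0.13 for ISCU (edgeR, FDR=5.64e-06), −1.03±0.11 for PRDX5 (FDR=9.71e-06), −0.52±0.09 for SODC (FDR=0.0143) and 1.24±0.22 for CX6B1 (FDR=0.0317). In HC versus CC, larvae of different parents in the same rearing, the values were −0.00±0.13 for ISCU (edgeR, FDR=0.999), 0.07±0.11 for PRDX5 (FDR=0.832), 0.04±0.09 for SODC (FDR=0.87) and 0.34±0.22 for CX6B1 (FDR=0.519). These comparisons share larvae with HH versus CC, so the values stand side by side and are not independent of each other. The median level of ISCU was 23.2 CPM in HH, 26.3 CPM in CH, 58.7 CPM in HC and 56.9 CPM in CC larvae.

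**Figure D3:**
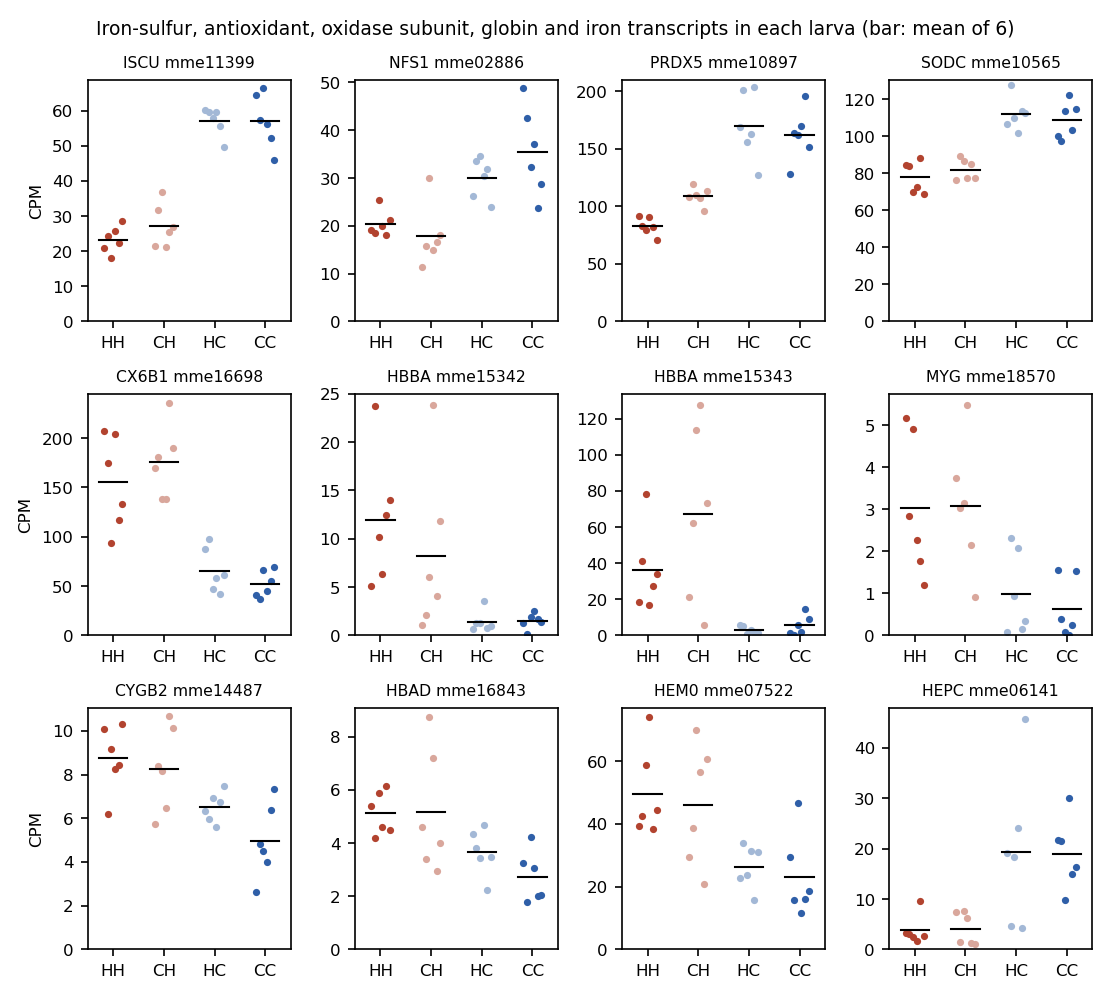
CPM (linear vertical axes) of 12 transcripts in each larva of HH, CH, HC and CC, with the mean of 6 larvae as a bar. ISCU, PRDX5 and SODC are lower and CX6B1 is higher in all 6 HH larvae than in any CC larva, and HC larvae lie near CC larvae in these panels.

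Transcripts of oxygen-binding proteins were higher in HH larvae. Of 6 globin transcripts 5 rose, with a median log2 fold change of 1.95 over the list. HBBA (mme15342), a hemoglobin beta subunit, had 5.11, 23.7, 10.2, 6.39, 12.5 and 14 CPM in HH larvae, against 1.28, 0.155, 1.86, 2.51, 1.68 and 1.43 CPM in CC larvae. No HH larva reached down to the CC range, and the rise of 3.01±0.60 was the largest among DETs with a symbol and no overlap (edgeR, FDR=0.00355). A second HBBA transcript (mme15343) had 18.4, 41.2, 78.1, 17.1, 27.4 and 34.1 CPM in HH larvae and 1.51, 0.232, 6, 2.12, 14.5 and 8.87 CPM in CC larvae. HH larvae again lay above all CC larvae, at 2.73±0.68 (edgeR, FDR=0.0138), although the spread within each group was several-fold. Another beta transcript, HBB (mme15344), with medians of 4.43 CPM in HH and 1.39 CPM in CC larvae, missed the threshold (1.70±0.61, edgeR FDR=0.0798) and passed it only without CC 5 (FDR=0.0457). Beta subunits can be near-identical copies, and reads on multiple sites went to a summary line that was dropped. The levels of these 3 transcripts are therefore uncertain.

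The other globins of the list were a myoglobin, a cytoglobin and an alpha-type subunit. The list holds only transcripts called in CH versus CC. Neuroglobin, which the paper reports as raised over CC in HH but not in CH larvae, could therefore not enter it. MYG (mme18570), myoglobin, the oxygen store of muscle, had 1.19 to 5.18 CPM in HH larvae (median 2.55) and 0 to 1.57 CPM in CC larvae (median 0.32). Its rise of 2.19±0.66 (edgeR, FDR=0.0391) rested on few reads, 263 over the HH and 53 over the CC libraries, and CC 1 and CC 6 overlapped with HH larvae. CYGB2 (mme14487), a cytoglobin found in many tissues, had 6.18 to 10.3 CPM in HH (median 8.81) and 2.61 to 7.35 CPM in CC larvae (median 4.64), a rise of 0.83±0.20 (edgeR, FDR=0.011). HBAD (mme16843), an alpha-type hemoglobin subunit, had 4.2 to 6.17 CPM in HH (median 5) and 1.78 to 4.23 CPM in CC larvae (median 2.56), a rise of 0.90±0.26 (edgeR, FDR=0.0296). The call of MYG was lost on leaving out CC 2, 3, 4 or 5 or HH 1, 2 or 3 (FDR from 0.0571 to 0.0882), and that of HBAD on leaving out CC 2, 5 or 6 or HH 1, 3 or 5 (FDR from 0.0521 to 0.0783). With CC 2, HH 1 or HH 3 left out, 3 globins were called.

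Of 4 red cell and iron transcripts, 2 rose and 1 fell. HEM0 (mme07522), the red cell form of the first enzyme of heme synthesis, had 38.3 to 74 CPM in HH larvae (median 43.5) and 11.8 to 46.7 CPM in CC larvae (median 17.3), a rise of 1.11±0.30 (edgeR, FDR=0.0234). TAL1 (mme13415), a transcription factor of blood formation, had 22.3 to 32.3 CPM in HH (median 27) and 11.1 to 22.8 CPM in CC larvae (median 14.8), a rise of 0.77±0.20 (edgeR, FDR=0.0178). The call of HEM0 did not hold without CC 2 (FDR=0.0635), CC 4 (0.0619) or HH 4 (0.0602), nor that of TAL1 without CC 2 (0.052), which left 1 call in the list. HEM1, the form of the enzyme used by other tissues, was not called. HEPC (mme06141), hepcidin, the hormone that lowers iron uptake and release, had 1.73 to 9.64 CPM in HH (median 2.87) and 9.72 to 30.0 CPM in CC larvae (median 18.9). HH larvae lay below all CC larvae by a narrow margin set by HH 5, and the fall was −2.32±0.55 (edgeR, FDR=0.0108). The sum over the red cell and iron list was 79.9 to 105 CPM in HH and 54.4 to 76.7 CPM in CC larvae, and the sum over the globins was 40.6 to 116 CPM in HH and 7.59 to 28 CPM in CC larvae, both without overlap. The median log2 fold change of the globins was 0.18 for HC over CC and 2.31 for HH over HC. It was 2.34 for CH over CC and −0.02 for HH over CH.

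The pancreatic enzymes of the gut had the largest falls. All 14 digestive enzyme transcripts were lower in HH larvae, with a median log2 fold change of −4.33, the most negative of the 20 lists. TRY3 (mme06598), a trypsin, had 1.07, 1.24, 0.607, 0.599, 0.425 and 0.840 CPM in HH larvae, against 246, 17.3, 1.27, 1.18, 7.31 and 33.8 CPM in CC larvae. HH larvae were uniformly low, CC 3 and CC 4 were about as low, and CC 1 stood far above all others, at a log2 fold change of −5.99±1.11 (edgeR, FDR=0.00218). AMYP (mme13164), pancreatic amylase, which digests starch, had 3.81, 6.37, 3.85, 11.2, 5.53 and 1.47 CPM in HH larvae and 134, 37.5, 9.81, 28.4, 15.1 and 19.1 CPM in CC larvae. Only HH 4 reached into the CC range, and the fall was −2.92±0.60 (edgeR, FDR=0.00423). ELA1 (mme03000), an elastase, had 0.686 to 2.72 CPM in HH (median 1.62) and 2.2 to 194 CPM in CC larvae (median 12.8), a fall of −4.67±0.89 (edgeR, FDR=0.00277).

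Of the 14 enzymes, 2 did not overlap between the groups, both transcripts of CEL2A, an elastase. Among the 1208 transcripts with a symbol, 44 had all HH larvae below all CC larvae. CEL2A mme07610 had 0 to 0.61 CPM in HH larvae (median 0.351) and 0.862 to 67.3 CPM in CC larvae (median 2.45), at −5.45±1.04 (edgeR, FDR=0.00277). It held 27 reads over the HH and 1346 over the CC libraries, 1159 of them in CC 1. Without CC 1 its log2 fold change was −3.31. CEL2A mme01198 had 0.0762 to 0.804 CPM in HH (median 0.502) and 0.862 to 16 CPM in CC larvae (median 1.57), at −2.95±0.67 (edgeR, FDR=0.00808). The other 9 transcripts were another CEL2A (mme07611, −4.33), the chymotrypsins CTR2 (mme00793, −4.68) and CTRL (mme06580, −3.84), the trypsins TRY1 (mme06219, −5.13 and mme06220, −5.19) and TRY2 (mme12497, −3.30), and the carboxypeptidases CBPA1 (mme01845, −4.33 and mme01869, −1.87) and CBPB1 (mme12144, −2.67), which trim the ends of peptides. Trypsins and elastases are families with near-identical copies, and reads on multiple sites were set apart in a dropped summary line, so the level of each member is uncertain.

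The size of this fall depended on 1 control larva. CC 1 was the highest of the CC larvae in 14 of 14 enzymes, and the summed CPM of the list was 1578 in CC 1, against 32.1 to 211 in the other CC larvae and 15.1 to 32 in HH larvae. CC 1, CC 2 and CC 6 lay above every HH larva in all 14 enzymes, CC 5 in 11, CC 3 in 6 and CC 4 in 4. Without CC 1 the median log2 fold change of the list was −2.11 and 10 of 14 were called. TRY3 then had −3.91, and the calls of CBPA1 mme01869 (FDR=0.215), CBPB1 (0.142), TRY2 (0.134) and CEL2A mme01198 (0.0601) were lost. Under limma-voom 3 of 14 were called. With HH 3 or HH 6 left out, the FDR of CBPA1 mme01869 was 0.0549 and 0.0641. The median of the list was −2.10 for HC over CC and −1.80 for HH over HC. It was −4.01 for CH over CC and −0.14 for HH over CH. TRY3, the enzyme with the largest fall, had −2.69 for HC over CC (edgeR, FDR=0.203) and −3.30 for HH over HC (edgeR, FDR=0.328), and passed in neither. For CH over CC it had −5.55 (edgeR, FDR=0.00309).

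**Figure D4:**
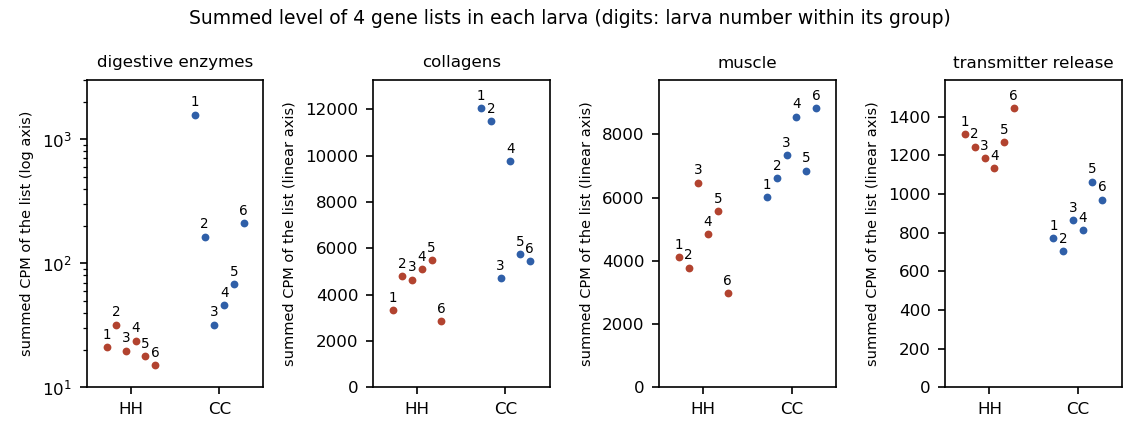
Summed CPM of the digestive enzymes (log vertical axis) and of collagens, muscle and transmitter release (linear axes) in each HH and CC larva, with the number of the larva beside its point. CC 1 stands alone in digestive enzymes at 1578 CPM, CC 1, CC 2 and CC 4 stand apart in collagens, and the sums of transmitter release do not overlap.

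Most collagen transcripts were lower in HH larvae. Of 25 collagen transcripts 20 fell and none rose, with a median log2 fold change of −1, and none of the 25 was free of overlap between the groups. CO1A1 (mme18707), a chain of the fibrillar collagen of bone and skin, had 19.4, 35.7, 29.2, 26.3, 48.7 and 14.1 CPM in HH larvae, against 222, 144, 19.7, 198, 86.9 and 68.9 CPM in CC larvae. CC 3 lay within the HH range and the other CC larvae lay above it, at a log2 fold change of −2.09±0.45 (edgeR, FDR=0.00585). CO6A6 (mme06021), a chain of the microfibrillar type VI collagen, had 6.44 to 24.2 CPM in HH (median 13.6) and 14.3 to 180 CPM in CC larvae (median 43.8), a fall of −2.42±0.55 (edgeR, FDR=0.00787). COCA1 (mme16222), a fibril-associated collagen with 58 reads over the HH and 278 over the CC libraries, fell, at −2.29±0.59 (edgeR, FDR=0.0176), a call that did not hold without CC 1 (FDR=0.0507) or CC 2 (0.0586). CO1A1 and COCA1 each had a transcript with more reads and a smaller fall. CO1A1 mme15489 had 759 to 1500 CPM in HH (median 1110) and 1300 to 2920 CPM in CC larvae (median 2050), at −0.93±0.19 (edgeR, FDR=0.00423). COCA1 mme09563 had medians of 237 CPM in HH and 373 CPM in CC larvae, at −0.90±0.24 (edgeR, FDR=0.0231). A further CO1A1 (mme18700) was not called (−1.28±0.44, edgeR FDR=0.065). These second transcripts of CO1A1, COCA1, POSTN and LAMB1 are named after their values were seen. CO9A1 and CO9A3, chains of a cartilage collagen, were among the 5 not called and had 0.44 and 0.31, and are named after their values were seen.

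The CC larvae also differed among themselves in collagen. CC 1, CC 2 and CC 4 exceeded every HH larva in 23, 22 and 22 of the 25 transcripts, whereas CC 5 did so in 5, CC 6 in 4 and CC 3 in 1. The summed CPM of the list was 2873 to 5505 in HH larvae, 9753 to 12060 in CC 1, CC 2 and CC 4, and 4705 to 5736 in CC 3, CC 5 and CC 6. Leaving out CC 1 or CC 2 left 9 collagens called, leaving out HH 1 or HH 6 left 11, and a fit of only HH and CC larvae left 9. The direction of the list median was kept in each of these settings (−0.81 to −1.01). Under limma-voom 10 were called. The list median was −0.83 for HC over CC and −0.26 for HH over HC. It was −1.155 for CH over CC and 0.09 for HH over CH.

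Other matrix proteins shared this direction with exceptions. Of 34 matrix glycoproteins and proteoglycans 16 fell and 4 rose, with a median log2 fold change of −0.70. POSTN (mme10546), periostin, which links collagen to cells, had 3.89 to 10.1 CPM in HH (median 4.92) and 4.73 to 34.2 CPM in CC larvae (median 11.1), a fall of −1.35±0.41 (edgeR, FDR=0.0389). EMIL2 (mme13223), an elastic fibre glycoprotein, fell, at −1.11±0.26 (edgeR, FDR=0.0109) and LAMB1 (mme07840), a laminin chain of basement membranes, at −0.89±0.26 (edgeR, FDR=0.0333). A second transcript of POSTN (mme04558), with medians of 178 CPM in HH and 243 CPM in CC larvae, fell, at −0.72±0.21 (edgeR, FDR=0.0294), and a second of LAMB1 (mme17184), with medians of 33 CPM in HH and 37.7 CPM in CC larvae, was not called (−0.24±0.15, edgeR FDR=0.32). The call of POSTN mme10546 was lost on leaving out CC 1, 2 or 4 or HH 1, 2, 3 or 6 (FDR from 0.0681 to 0.124), and that of LAMB1 mme07840 on leaving out CC 1, 2 or 4 or HH 1, 4 or 6 (FDR from 0.0624 to 0.0785). The 4 that rose, named after their values were seen, were ECM2 (0.86), MATN3 (0.84), KERA (0.70) and MATN2 (0.62). Matrilins are adaptor proteins of cartilage and keratocan is a proteoglycan of the cornea. The number of rises was 4 in each fit without 1 larva, whereas the number of falls was 6 when CC 1, CC 2, HH 1 or HH 6 was left out, 7 for CC 4, 10 for HH 2 and 25 for CC 3, and it was 7 in a fit of only HH and CC larvae.

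Enzymes that process collagen split in direction. LYOX, lysyl oxidase, which cross-links collagen and elastin, was present as 3 transcripts. LYOX mme13192 had 5.59 to 15.4 CPM in HH (median 11) and 1.72 to 4.18 CPM in CC larvae (median 3.54). HH larvae lay above all CC larvae, at 1.68±0.31 (edgeR, FDR=0.00197). LYOX mme08650 had 14.9 to 39.2 CPM in HH (median 28.1) and 6.11 to 26.3 CPM in CC larvae (median 12.5), at 1.03±0.28 (edgeR, FDR=0.0228), which did not hold without CC 2 or 4 or HH 1 or 2 (FDR from 0.0526 to 0.0622). LYOX mme08651 was not called (0.57±0.33, edgeR FDR=0.281). The related oxidases LOXL1 (mme00535, −0.50±0.20) and LOL2B (mme19625, −1.22±0.51) were not called either (edgeR, FDR=0.125 and 0.13). Of the 15 transcripts of this list 2 rose and 5 fell, and none of the 5 falls was called when CC 1, 2 or 4 or HH 1 or 6 was left out, nor were more than 3 with HH 2 or 3 left out. RECK (mme11909), a membrane inhibitor of matrix proteases, was one of these falls (−0.89±0.28, edgeR FDR=0.0467), a call lost on leaving out any of CC 1, 2 and 4 and HH 1, 2, 3, 5 and 6 (FDR from 0.0545 to 0.127).

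Muscle transcripts were lower in HH larvae as well. Of 36 transcripts 12 fell and none rose, with a median log2 fold change of −0.63. The share called was 33.3%, against 49.1% of all transcripts with a symbol, of which 17.4% were lower in HH. In 4 of the 36 all HH larvae lay below all CC larvae, as they did in 44 of the 1208 transcripts with a symbol. XIRP1 (mme13767), an actin-binding protein of muscle junctions, had 23.6, 22.3, 20.8, 18.7, 30.6 and 22.4 CPM in HH larvae, against 37.8, 47.5, 61, 91.1, 42.5 and 33.2 CPM in CC larvae. The groups did not overlap, at −1.18±0.21 (edgeR, FDR=0.00177). CAN3 (mme10070), the muscle protease calpain-3, had 3.81 to 19.8 CPM in HH (median 8.7) and 14.2 to 92.6 CPM in CC larvae (median 42.7), a fall of −2.18±0.54 (edgeR, FDR=0.014). MYMK (mme00894), myomaker, which fuses myoblasts into fibres, had 2 to 4.05 CPM in HH (median 2.63) and 3.13 to 10.9 CPM in CC larvae (median 6.98), a fall of −1.35±0.36 (edgeR, FDR=0.0201). The other 3 muscle transcripts without overlap, named after their values were seen, were SRF (−0.89), a regulator of muscle genes, FLNC (mme02012, −0.85), a filamin, and TNNT2 (−0.64), a troponin. A second FLNC transcript (mme19037), also named after its value was seen, overlapped and was not called (−0.41±0.22, edgeR FDR=0.247). Leaving out CC 3 raised the count of called muscle transcripts to 20, it was 8 to 16 for the other larvae, and DESeq2 gave 22.

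Most neural transcripts were higher in HH larvae. Over 7 lists with 164 transcripts, 103 rose, 3 fell and 58 were not called, at a median log2 fold change of 0.54, and in 59 all HH larvae lay above all CC larvae, as they did in 217 of the 1208 transcripts with a symbol. Of the DETs among them, 5 were beyond a log2 fold change of 1 in size, among them the falls HTR1A (−1.07) and KCNA1 (−1.02). The number of rises called depended on single larvae here too. Without HH 6 it was 16 in transmitter release, 13 in synaptic adhesion, 8 in glutamate receptors and 15 in voltage-gated channels. In neural development it was 16 without CC 2, and 17 without CC 1 or with only HH and CC larvae. The list medians in these fits were 0.47 to 0.61. The summed CPM did not overlap between the groups in 6 of the 7 lists, the exception being acetylcholine and amine transmission. The sums of that list lay lower in HH larvae, at 84.1 to 98.7 CPM (median 89.8). In CC larvae they were 94.5 to 136 CPM (median 104).

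Among 31 transcripts of transmitter release 21 rose and 1 fell. SYT2 (mme02951), a calcium sensor of synaptic vesicles, had 31.5 to 50.6 CPM in HH (median 36.9) and 16.7 to 26.3 CPM in CC larvae (median 20.4), a rise of 0.84±0.14 (edgeR, FDR=7.90e-04). PCLO (mme02274), piccolo, a scaffold of the zone where vesicles fuse, had 59.2 to 103 CPM in HH (median 71.7) and 37.2 to 50.4 CPM in CC larvae (median 37.9), a rise of 0.88±0.16 (edgeR, FDR=0.00224). SYT7 (mme00250), another calcium sensor, rose by 0.90±0.24 (edgeR, FDR=0.021). In all 3 the groups did not overlap. DYN1 (mme08931), dynamin, which retrieves vesicle membrane, was the 1 that fell (−0.77, edgeR FDR=0.0138), and is named after its value was seen.

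Synaptic adhesion molecules, which hold the 2 sides of a synapse together, rose in 17 of 24 transcripts. LRRT2 (mme04246) had 16.7, 13.8, 13.6, 14.8, 14.4 and 17.7 CPM in HH larvae, against 5.69, 6.04, 7.95, 5.25, 10.3 and 7.53 CPM in CC larvae. Each HH larva exceeded each CC larva, and the rise of 1.09±0.14 was the largest of the neural lists (edgeR, FDR=1.01e-04). LRFN4 (mme17765) had 5.69 to 10.0 CPM in HH (median 8.4) and 3.49 to 5.02 CPM in CC larvae (median 4.33), a rise of 0.95±0.17 (edgeR, FDR=0.00177). LRC4C (mme02380) rose by 0.98±0.29 (edgeR, FDR=0.0351) on 200 reads over the HH and 90 over the CC libraries, a call lost on leaving out CC 1, 2, 4 or 5 or HH 1, 3 or 6 (FDR from 0.0508 to 0.097).

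Receptors of the excitatory transmitter glutamate and their partners rose in 12 of 22 transcripts. GRIA4 (mme04873), an AMPA receptor subunit, had 7.51 to 11.3 CPM in HH (median 8.44) and 2.35 to 6.09 CPM in CC larvae (median 4.63), a rise of 0.93±0.19 (edgeR, FDR=0.00426). CNIH2 (mme10902) and CCG3 (mme14971), auxiliary proteins of AMPA receptors, rose by 0.81±0.16 (edgeR, FDR=0.00401) and 0.76±0.13 (edgeR, FDR=0.0014). The 3 transcripts named here did not overlap between the groups.

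Inhibitory transmission rose in 6 of 13 transcripts. SC6A1, the transporter that clears the inhibitory transmitter GABA, was present as a pair of transcripts. SC6A1 mme03084 had 90.3 to 134 CPM in HH (median 108) and 52.2 to 83.6 CPM in CC larvae (median 60.6), a rise of 0.77±0.12 (edgeR, FDR=5.06e-04). SC6A1 mme07234 rose by 0.70±0.11 (edgeR, FDR=7.90e-04), and VIAAT (mme03034), which loads GABA and glycine into vesicles, by 0.57±0.12 (edgeR, FDR=0.00512). None of these 3 transcripts overlapped between the groups. Another VIAAT transcript (mme07651), with medians of 34.5 CPM in HH and 26.6 CPM in CC larvae, was not called (0.34±0.11, edgeR FDR=0.0522). It is named after its value was seen.

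Of 8 acetylcholine and amine transcripts 3 rose and 1 fell. HTR1A (mme05444), a serotonin receptor, had 19.1, 31.7, 29.4, 28.9, 26.1 and 15.5 CPM in HH larvae, against 72.4, 77.2, 38.6, 57.3, 36.4 and 34.7 CPM in CC larvae. HH larvae lay below all CC larvae, opposite to most neural transcripts, at −1.07±0.19 (edgeR, FDR=0.00185). DRD2L (mme04792), a dopamine receptor, had 5.26 to 6.93 CPM in HH (median 5.93) and 2.78 to 4.45 CPM in CC larvae (median 3.34), a rise of 0.76±0.15 (edgeR, FDR=0.00368). CLAT (mme05572), which makes acetylcholine, rose by 0.67±0.18 (edgeR, FDR=0.0245), a call lost on leaving out CC 1, 2 or 4 or HH 6 (FDR from 0.0546 to 0.0924), each of which left 2 calls in the list.

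The list of voltage-gated channels, some of which carry the action potential, also holds channels of other kinds, such as KCNJ5, KCNKA and KCNN2. Of its 30 transcripts 20 rose, these among them, and 1 fell. SCN8A (mme07507), a sodium channel of axons, had 53.1 to 81.5 CPM in HH (median 58.2) and 32.3 to 40.6 CPM in CC larvae (median 35.5), a rise of 0.77±0.11 (edgeR, FDR=2.91e-04). SCN2B (mme04934), a sodium channel beta subunit, rose by 0.77±0.16 (edgeR, FDR=0.00497), also without overlap. KCNA1 (mme14677), a potassium channel that dampens firing, had 5.11 to 19.2 CPM in HH (median 12.6) and 16.4 to 35.7 CPM in CC larvae (median 23.4), a fall of −1.02±0.25 (edgeR, FDR=0.0113).

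Genes of neural development rose in 24 of 36 transcripts, and none fell. LHX1 (mme05098), a homeobox factor of neuronal identity, had 14.2 to 23 CPM in HH (median 18.6) and 7.38 to 11.7 CPM in CC larvae (median 9.33), a rise of 1±0.14 (edgeR, FDR=1.68e-04). Its relative LHX5 (mme11655) rose by 0.97±0.17 (edgeR, FDR=0.00115). SHH (mme12172), the signal sonic hedgehog, had 7.16 to 14.7 CPM in HH (median 9.75) and 3.95 to 6 CPM in CC larvae (median 5.15), a rise of 1.02±0.22 (edgeR, FDR=0.00477). The 3 transcripts had no overlap between the groups. The median of this list was 0.39 for HC over CC and 0.16 for HH over HC, beside 0.61 for HH over CC. It was 0.68 for CH over CC and −0.06 for HH over CH.

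**Figure D5:**
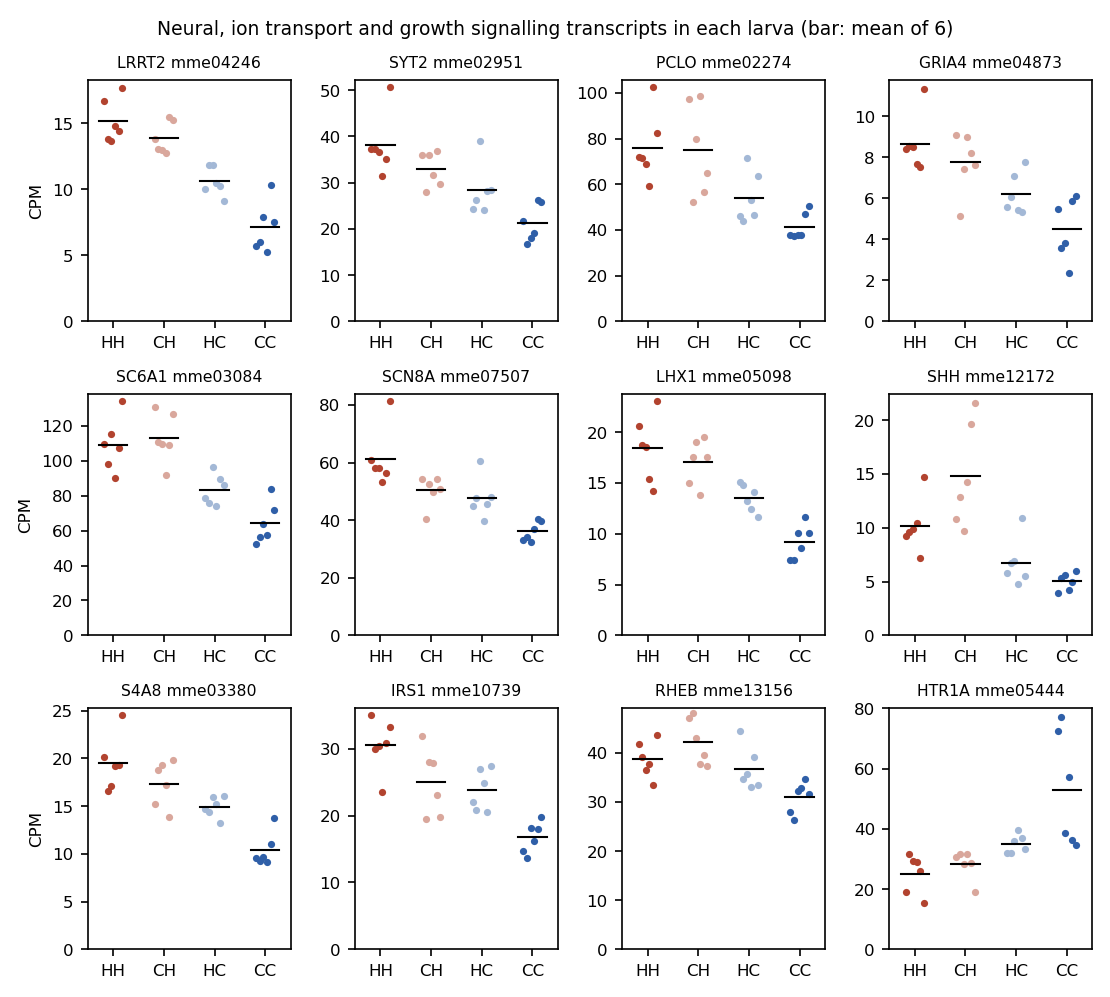
CPM (linear vertical axes) of 12 neural, ion transport and growth signalling transcripts in each larva of HH, CH, HC and CC, with the mean of 6 larvae as a bar. HTR1A is lower in HH, the other 11 are higher, RHEB is the one whose higher HH values overlap with CC, and HC larvae mostly lie between HH and CC.

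Acid-base and ion transport genes rose in 4 of 9 transcripts and none fell. S4A8 (mme03380), a sodium-driven exchanger of chloride and bicarbonate, had 20.1, 16.6, 17.1, 19.2, 19.4 and 24.6 CPM in HH larvae, against 9.53, 9.29, 9.72, 9.17, 11.1 and 13.8 CPM in CC larvae. The groups did not overlap, at 0.90±0.12 (edgeR, FDR=1.68e-04). CAH10 (mme16871), a carbonic anhydrase-related protein without the enzyme activity, had 1.4 to 2.76 CPM in HH (median 1.96) and 0.507 to 1.18 CPM in CC larvae (median 1.01), a rise of 1.16±0.25 (edgeR, FDR=0.00566). AT2B2 (mme03081), a calcium pump of the plasma membrane, rose by 0.66±0.12 (edgeR, FDR=0.00228). S4A8, CAH10 and AT2B2 are all known from neurons, and their part in the gill or skin cannot be read from whole larvae.

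Of 22 transcripts of pyruvate, fatty acid and amino acid oxidation 12 fell and 1 rose, with a median log2 fold change of −0.38. BCAT1 (mme14679), which starts the breakdown of branched-chain amino acids, had 16.4 to 27.9 CPM in HH (median 18.3) and 25 to 50.2 CPM in CC larvae (median 39.4), a fall of −0.90±0.17 (edgeR, FDR=0.00231). ODPB (mme02805), a subunit of pyruvate dehydrogenase, had 21.1 to 29.2 CPM in HH (median 24.6) and 32.5 to 42.2 CPM in CC larvae (median 36.5). Its groups did not overlap, yet the fall of −0.56±0.17 (edgeR, FDR=0.0364) was not called on leaving out CC 2, 4 or 6 or HH 1, 2, 4 or 6 (FDR from 0.0544 to 0.0819). ACBP (mme18000), a carrier of acyl-CoA, was the 1 rise (0.54±0.15, edgeR FDR=0.0278), not called on leaving out CC 1 or 2 or HH 2 or 5 (FDR from 0.0597 to 0.0792). The list held 5 calls when CC 2, CC 4 or HH 1 was left out, 6 for HH 2 or HH 4 and 7 for HH 6.

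Of 12 transcripts of glycolysis and glucose metabolism 4 rose and none fell. The share raised was 33.3%, near the 31.7% of all transcripts with a symbol. F16P1 (mme01787), fructose-1,6-bisphosphatase, a step of glucose synthesis, had 14.9 to 24.8 CPM in HH (median 17.6) and 5.07 to 13 CPM in CC larvae (median 10.1), a rise of 1.01±0.20 without overlap (edgeR, FDR=0.00393). PGAM1 (mme13897), a glycolytic mutase, rose by 0.47±0.11 (edgeR, FDR=0.00906), and ENOG (mme12676), the neuronal enolase, by 0.45±0.11 (edgeR, FDR=0.0108). The median of the list was 0.20, near the 0.19 of all transcripts with a symbol, and 5 of the 8 not called had a negative log2 fold change.

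Of 10 growth signalling transcripts 3 rose and none fell, a share raised of 30% against 31.7% of all transcripts with a symbol. The list median was −0.27, and 6 of the 7 not called had a negative log2 fold change. IRS1 (mme10739), the substrate through which insulin and insulin-like growth factor receptors signal, had 35.1, 30.0, 30.4, 23.5, 30.8 and 33.2 CPM in HH larvae, against 14.6, 13.7, 18.1, 16.2, 18 and 19.7 CPM in CC larvae. No values overlapped, at 0.87±0.13 (edgeR, FDR=4.32e-04). FGF21 (mme16620), a hormone of the fasted state in mammals, had 51.3 to 60.8 CPM in HH (median 57.3) and 31.8 to 47.8 CPM in CC larvae (median 36.8), a rise of 0.55±0.13 (edgeR, FDR=0.0108). RHEB (mme13156), an activator of the growth kinase mTOR, rose by 0.32±0.10 (edgeR, FDR=0.0388), a call lost on leaving out CC 1, 2, 4 or 6 or HH 1, 2, 4 or 6 (FDR from 0.056 to 0.112). The growth hormone receptor, the insulin receptor and mTOR itself were not called, and when CC 3 was left out 2 falls were called beside the 3 rises, as they were under DESeq2.

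Of 22 immune transcripts 1 rose and 2 fell, the lowest share of calls among the lists (13.6%). SDF1 (mme14065), the chemokine that guides migrating cells through the receptor CXCR4, had 17 to 23 CPM in HH (median 20.7) and 9.56 to 14 CPM in CC larvae (median 12), a rise of 0.81±0.19 without overlap (edgeR, FDR=0.0086). COL11 (mme09759), a collectin that binds microbial sugars, fell, at −1.62±0.45 (edgeR, FDR=0.0246), which did not hold without CC 4 (FDR=0.0576) or HH 1 (0.053). TNR5 (mme07011), the receptor CD40, fell, at −1.49±0.41 (edgeR, FDR=0.0238), which did not hold without CC 1 (FDR=0.0535), CC 2 (0.0591) or HH 6 (0.0615). Of the 19 not called, 18 had a negative log2 fold change, and 7 immune transcripts were called when CC 3 was left out, 5 when CC 5 was and 8 under DESeq2.

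Some transcripts outside the lists were named because they had the largest changes without overlap. HSF1 (mme02622), annotated as a heat shock factor, had 0.0762 to 0.931 CPM in HH larvae (median 0.571) and 1.09 to 4.07 CPM in CC larvae (median 2.22), at −2.15±0.56 (edgeR, FDR=0.0185). LGSN (mme14563), annotated as lengsin, a lens protein, had 0.0762 to 0.998 CPM in HH (median 0.545) and 1.52 to 4.71 CPM in CC larvae (median 4), at −2.62±0.55 (edgeR, FDR=0.00493). MYO1H (mme01375), a class I myosin, had 0.989 to 1.62 CPM in HH (median 1.17) and 0.0774 to 0.986 CPM in CC larvae (median 0.446), at 1.24±0.32 (edgeR, FDR=0.0155). These 3 rested on few reads, 40 to 277 per group. The HC medians were 0.326 CPM for HSF1, 0.722 CPM for LGSN and 1.1 CPM for MYO1H. The CH medians were 0.519, 0.629 and 1.2 CPM. Among transcripts without a symbol and without overlap, the largest rise was mme19001 (1.88±0.39, edgeR FDR=0.00432) and the largest fall mme07893 (−3.91±0.71, edgeR FDR=0.00195), the second on 8 reads over all HH and 123 over all CC libraries.

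The raised DETs had a median log2 fold change of 0.34 for HC over CC and 0.24 for HH over HC, and the lowered DETs had −0.36 and −0.27. By way of CH, the raised DETs had 0.47 for CH over CC and 0.13 for HH over CH, and the lowered DETs had −0.48 and −0.18. DETs were chosen on HH and CC larvae, which enter these steps, so the medians are a description only. By way of HC, the larger step was HH over HC in globins (2.31, against 0.18 for HC over CC) and in antioxidant and iron-sulfur transcripts (−0.35, against 0.04). It was HC over CC in collagens (−0.83, against −0.26 for HH over HC) and neural development (0.39, against 0.16). Muscle divided as −0.39 for HC over CC and −0.23 for HH over HC. By way of CH, the larger step was CH over CC in each of these lists. It was 2.34 in globins (HH over CH −0.02), −0.57 in antioxidant and iron-sulfur transcripts (−0.18) and −1.155 in collagens (0.09). In neural development it was 0.68 (−0.06), and in muscle −0.86 (0.22). The members of these lists had all been called in CH versus CC, which favours a large CH over CC step. CC larvae enter HC over CC too, so the same choice can enlarge that step. The order of the steps by either way is therefore a description only. The paper reports no DETs in HC versus CC. In these values, how a change divided into steps differed with the group it passed through. The difference between the lists in either division was not tested.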

How the data were processed

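RNA from 24 individual whole larvae was sequenced, 6 in each of HH, CH, HC and CC. The authors trimmed paired-end reads, aligned them to a cited silverside reference genome with STAR and counted them with HTSeq-count, and the values they deposited are unnormalized read counts. The submitters' processing notes list Trimmomatic, STAR 2.6.1d, HTSeq 0.11.1 and edgeR 3.40.2, whereas the paper's methods name Fastp for trimming. Libraries were made with a directional kit. The assembly name of that genome is not given in the sources used here, nor are the HTSeq settings for strand and overlapping features. Counts of overlapping transcripts and of near-identical copies are therefore uncertain. Larvae were grouped by their labels. Rearing levels are printed from the labels, which differ from those in the paper.

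The 5 summary lines of each file were dropped from library sizes and tests. In HH and CC larvae they held, on average, 20.6% of reads (no feature), 0.567% (ambiguous) and 5.27% (multiple sites). The 20651 entries were summed to 20210 genes, of which filterByExpr kept 17262 with the groups given, a minimum count of 10 and a minimum total of 15. Depth of the HH and CC libraries was 12136995 to 16120500 counted reads, and intervals beyond the fitted standard errors were not computed. Libraries were scaled with TMM factors (0.865 to 1.18), and no HH or CC library was a copy of another (chi-square per degree of freedom of at least 12.6 between 2 larvae of a group, where sampling alone gives 1). All 24 larvae entered 1 quasi-likelihood fit in edgeR 4.0.16 (R 4.3.3, legacy form, 1 coefficient per group, common biological coefficient of variation 0.248), and HH versus CC was tested at a Benjamini-Hochberg FDR of 0.05 over all 17262. Standard errors (SE) were derived from the fold change and its F statistic, and every fold change is HH over CC unless another pair is named. Library measures were compared with exact permutation tests over 924 splits of the 12 larvae. The spread of log2 CPM used a prior count of 2. The paper's methods give 3 rearing containers per group with 2 larvae from each, and the labels do not link larvae to containers, so no container term could be fitted and p-values measure the spread between larvae, not between containers. The code was tested on simulated counts.

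The members, gene lists and alternatives were chosen with earlier results of these data known. Symbols came from the first 1299 rows of the paper's Dataset 1, matched by transcript ID, and 1208 of the tested transcripts had one. The 20 lists held 382 tested transcripts. Named transcripts were all members of the globin, digestive enzyme, and antioxidant and iron-sulfur lists and every lysyl oxidase. They further included, in each other list, the 3 called members with the largest fold change, or where fewer were called those and the members with the smallest p, then the 5 largest rises and 5 largest falls with a symbol and without overlap, and the largest rise and fall of that kind without a symbol. Exceptions are marked where they stand. Alternatives were DESeq2 1.42.0, the newer edgeR form, RLE factors, a filter without groups, no filter, limma-voom (limma 3.58.1), a fit of HH and CC larvae only, a replicate block, entries not summed, and each HH or CC larva left out. Sequences and genome positions of the transcripts were not used here.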

Additional observations from a re-analysis of the deposited data

Results flagged for a closer look

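Each of the 88 named transcripts was searched in each group of 6 larvae for 1 larva standing apart from the other 5, by Dixon's ratio of its gap to the range of the group against its critical value. For normally spread values chance gives such a larva in about 1 in 20 groups, and 21 of 176 groups had one. The ratio was taken on CPM without a log, where high values stand apart more easily. The rate of 1 in 20 need not hold for them, and the count is a description only.

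In 14 of the 21 the larva was CC 1, high in every digestive enzyme transcript. It had 246 CPM of TRY3 (other CC larvae 1.18 to 33.8), 247 and 92.9 CPM of TRY1 (mme06220 and mme06219), 23.4 CPM of TRY2, 228, 67.3 and 16 CPM of CEL2A (mme07611, mme07610 and mme01198), 194 CPM of ELA1, 104 CPM of CTR2, 56.5 CPM of CTRL, 134 CPM of AMYP, 51.7 and 43.1 CPM of CBPA1 (mme01845 and mme01869) and 73.4 CPM of CBPB1. These transcripts belong to 1 organ, so the 14 are not independent of each other.

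The HH larvae that stood apart were HH 6, high in GRIA4 (11.3 CPM, others 7.51 to 8.53), SYT2 (50.6 CPM, others 31.5 to 37.4) and SCN8A (81.5 CPM, others 53.1 to 60.8), HH 5, high in HEPC (9.64 CPM, others 1.73 to 3.28), HH 2, high in CEL2A mme07611 (6.55 CPM, others 1.2 to 2.1), and HH 1, high in CTR2 (1.52 CPM, others 0.49 to 0.742). CC 6 was high in SYT7 (1.52 CPM, others 0.846 to 1.1).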

How the results depend on the processing

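Alternatives were run for the HH versus CC counts, lists and the 88 named transcripts, and none of those named transcripts changed sign where called. Against 1520 DETs (900 up, 620 down), the newer edgeR form gave 1698, RLE factors 1497, a filter without groups 1511, no filter at all 1396, limma-voom 1460, a fit of HH and CC larvae only 1130 and entries not summed 1521. DESeq2 gave 2052, with 1080 up and 972 down, and 7 transcripts had no adjusted p. Leaving out 1 larva gave 821 to 1697 DETs, 513 to 967 up and 301 to 773 down. With a replicate block 1257 were called, but same-numbered HH and CC larvae did not deviate together (correlations from −0.0995 to 0.0304, and 0 of 6 correlated best with their own number), so the numbers do not pair larvae. The filter without groups tested 5 of the digestive enzymes, all called. Of the list counts under alternatives, 352 stayed within 1.5 times, 38 fell below and 10 rose above. Of the values of named transcripts under alternatives, 1617 kept their side of the threshold, 122 lost the call and 1 gained it. Calls were lost at low and at high read counts, as in MYG and in RHEB, and the part of depth in this was not tested.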
